A study of Mus musculus with 3 samples.

Results

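The 7 genes Ms4a4b, Ms4a4c, Ms4a4d, Ms4a6b, Ms4a6c, Ms4a6d and Ms4a7 were followed across 3 sorted populations of the mouse spleen. They were chosen by gene symbol: every probe set whose platform annotation gives one of these symbols alone was taken, which gave 14 of the 45037 probe sets that are not controls, for 7 of 18193 named genes. Each population had 1 Affymetrix array: red pulp macrophages, sorted as high for the macrophage surface antigen encoded by Adgre1 and for Spic-EGFP, Spic-positive monocytes, sorted as positive for CD11b, Ly6C and Spic, and Spic-negative monocytes, positive for CD11b and Ly6C only. All cells came from adult mice labelled Spic(igfp/+), so all 3 populations carry an EGFP reporter in a single Spic allele, Spic being an Ets transcription factor of red pulp macrophages. The title of the series concerns how iron-recycling macrophages develop from monocytes. Values are log2 expression after RMA, so that a difference of 1 is 2-fold. With 1 array per population no spread between animals can be estimated and no test was run, and whether cells of several mice were pooled is not stated in the labels.

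Ms4a genes encode small proteins that cross the membrane 4 times and sit in immune cells and some epithelia. The family is best known for CD20 (Ms4a1) on B cells and for the beta chain of the IgE receptor (Ms4a2) on mast cells and basophils. The Ms4a4 and Ms4a6 genes of the mouse are neighbouring copies that have multiplied in rodents and are found in monocytes, macrophages and T cells. Ms4a7 is used as a marker of resident macrophages, including those at the borders of the brain.

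Of the genes behind the sort, Spic, Adgre1 and Itgam were read as a check of the labels, and Ly6C was not. Spic measured 12.23 in red pulp macrophages, 9.22 in Spic-positive monocytes and 5.66 in Spic-negative monocytes. Adgre1 measured 12.50 in red pulp macrophages, against 10.67 and 10.77 in Spic-positive and Spic-negative monocytes, and Itgam (CD11b) 5.23 against 7.38 and 8.68. All 10 macrophage markers were above the floor in red pulp macrophages, against 8 in Spic-positive and 5 in Spic-negative monocytes. All 8 measured classical monocyte markers were above it on both monocyte arrays, and 7 in macrophages. Presence above the floor thus did not separate the populations by itself. The floor, 5.02, is the median over all arrays once control probe sets are set aside, and levels below it are near background. The arrays also differed in other ways, whose part in the results below was not tested. Of 8 measured erythroid genes, 7 were above the floor in macrophages, against 2 in Spic-positive and 1 in Spic-negative monocytes. Xist measured 11.95 in macrophages, against 4.70 and 4.63 in Spic-positive and Spic-negative monocytes, and the Y-linked gene Eif2s3y measured 3.31, against 9.56 and 10.10. The 18 hybridization controls, which are added in a fixed amount, had a median excess of 2.16 on the array of Spic-positive monocytes over that of Spic-negative monocytes. The Gapdh control, read at its 3' end minus its 5' end, gave 1.61 in macrophages, 2.25 in Spic-positive monocytes and 0.48 in Spic-negative monocytes. The beta-actin control, read in the same way, gave 1.13, 0.57 and 0.74. Spic-positive monocytes were thus highest on Gapdh and lowest on beta-actin.

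In the RefSeq gene table, the 7 members lie in a run of genes on chromosome 19, in the order Ms4a7, Ms4a4c, Ms4a4b, Ms4a6c, Ms4a6b, Ms4a4d and Ms4a6d. That run holds 9 protein-coding genes, the other two being Ms4a4a and Gm8369. Promoter windows from RefSeq (GRCm38.p6, 250 bases before to 50 bases after a start) were at hand for 6 of the 7 members, Ms4a6d excepted, and Ms4a7 had 2 starts. The windows of the Ms4a6b and Ms4a6c pair, of the Ms4a4b and Ms4a4c pair and of the upstream start of Ms4a7 are shown, as pairs of near copies and the member higher in macrophages. They run 5′ to 3′ on the strand of the gene, with capitals for GGAAGT on either strand, the core of many Ets factor sites, read as ACTTCC when it lies on the opposite strand.
Ms4a6b, chr19:11518309-11518608, + strand: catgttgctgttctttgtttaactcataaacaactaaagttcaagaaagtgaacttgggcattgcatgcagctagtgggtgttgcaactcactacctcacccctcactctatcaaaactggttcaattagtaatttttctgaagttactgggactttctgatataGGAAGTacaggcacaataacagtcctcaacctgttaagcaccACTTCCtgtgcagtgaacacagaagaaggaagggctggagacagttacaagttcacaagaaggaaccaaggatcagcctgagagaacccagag
Ms4a6c, chr19:11469118-11469417, + strand: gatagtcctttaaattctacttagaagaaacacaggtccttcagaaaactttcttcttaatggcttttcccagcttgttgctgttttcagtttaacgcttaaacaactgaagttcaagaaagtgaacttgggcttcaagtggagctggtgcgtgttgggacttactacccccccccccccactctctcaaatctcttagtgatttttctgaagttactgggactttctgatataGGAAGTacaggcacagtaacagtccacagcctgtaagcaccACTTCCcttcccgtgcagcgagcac
Ms4a4b, chr19:11443308-11443607, + strand: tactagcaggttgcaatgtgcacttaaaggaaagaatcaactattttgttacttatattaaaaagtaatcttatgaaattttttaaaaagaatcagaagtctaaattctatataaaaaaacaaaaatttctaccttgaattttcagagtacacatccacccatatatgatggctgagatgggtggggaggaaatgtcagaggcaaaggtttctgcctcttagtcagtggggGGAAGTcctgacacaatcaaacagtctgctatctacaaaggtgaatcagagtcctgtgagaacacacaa
Ms4a4c, chr19:11407411-11407710, + strand: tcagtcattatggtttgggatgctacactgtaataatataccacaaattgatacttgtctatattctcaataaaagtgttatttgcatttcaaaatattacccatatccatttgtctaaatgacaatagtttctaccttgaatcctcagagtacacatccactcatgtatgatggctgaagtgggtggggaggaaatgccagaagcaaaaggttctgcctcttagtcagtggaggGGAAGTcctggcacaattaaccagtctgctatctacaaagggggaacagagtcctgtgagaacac
Ms4a7, chr19:11336097-11336396, - strand: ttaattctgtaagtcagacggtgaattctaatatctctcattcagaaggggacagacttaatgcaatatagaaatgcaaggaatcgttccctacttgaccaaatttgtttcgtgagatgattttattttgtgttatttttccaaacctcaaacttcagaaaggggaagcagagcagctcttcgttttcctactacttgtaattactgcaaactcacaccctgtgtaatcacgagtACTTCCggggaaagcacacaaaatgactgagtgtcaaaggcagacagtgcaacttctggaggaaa
Ms4a6b and Ms4a6c shared 192 identical bases over 233 aligned positions of their windows (82.4%), and Ms4a4b and Ms4a4c shared 226 over 297 (76.1%). The other 18 pairs of windows shared between 13 and 59 identical bases. GGAAGT was found in 6 of 7 member windows, the exception being the downstream start of Ms4a7, and in 23.8% of all 32851 windows. This motif was picked after the windows had been read, so its count among them cannot be set against that share. Within each pair of near copies the matches lie in the same shared stretch and are not separate finds. The window of Ms4a4d, which is not shown, had 3 matches, and that gene was below the floor on every array. The interferon-stimulated response element core (GAAA, any 2 bases, GAAA), the PU.1 type Ets site GAGGAAGT and the C/EBP palindrome TTGCGCAA, searched on both strands, were found in 0 of 7 member windows and in 3.44%, 3.20% and 0.183% of all windows. GAGGAAGT contains GGAAGT, so these 2 searches overlap. A match is a description of letters and not a bound site.

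Of the 7 members, 6 were above the floor on all 3 arrays on their brightest probe set, so none of these 6 entered the counts through 1 population alone. Ms4a4d was below the floor on every array. In red pulp macrophages, 4 of the 6, namely Ms4a4c, Ms4a6c, Ms4a6b and Ms4a6d, were at least 2-fold lower than in Spic-negative monocytes, against 11.3% of the 12375 genes above the floor. Ms4a7 was the 1 of 6 at least 2-fold higher, against 19.6% of all genes, and Ms4a4b differed by less than 2-fold. The median difference of the 6 was -1.84, and that of all genes 0.03. The central 95% of all genes ran from -2.04 to 3.42. Less RNA per cell and fewer cells carrying the RNA cannot be told apart in a sorted population measured as a whole.

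**Figure D1:**
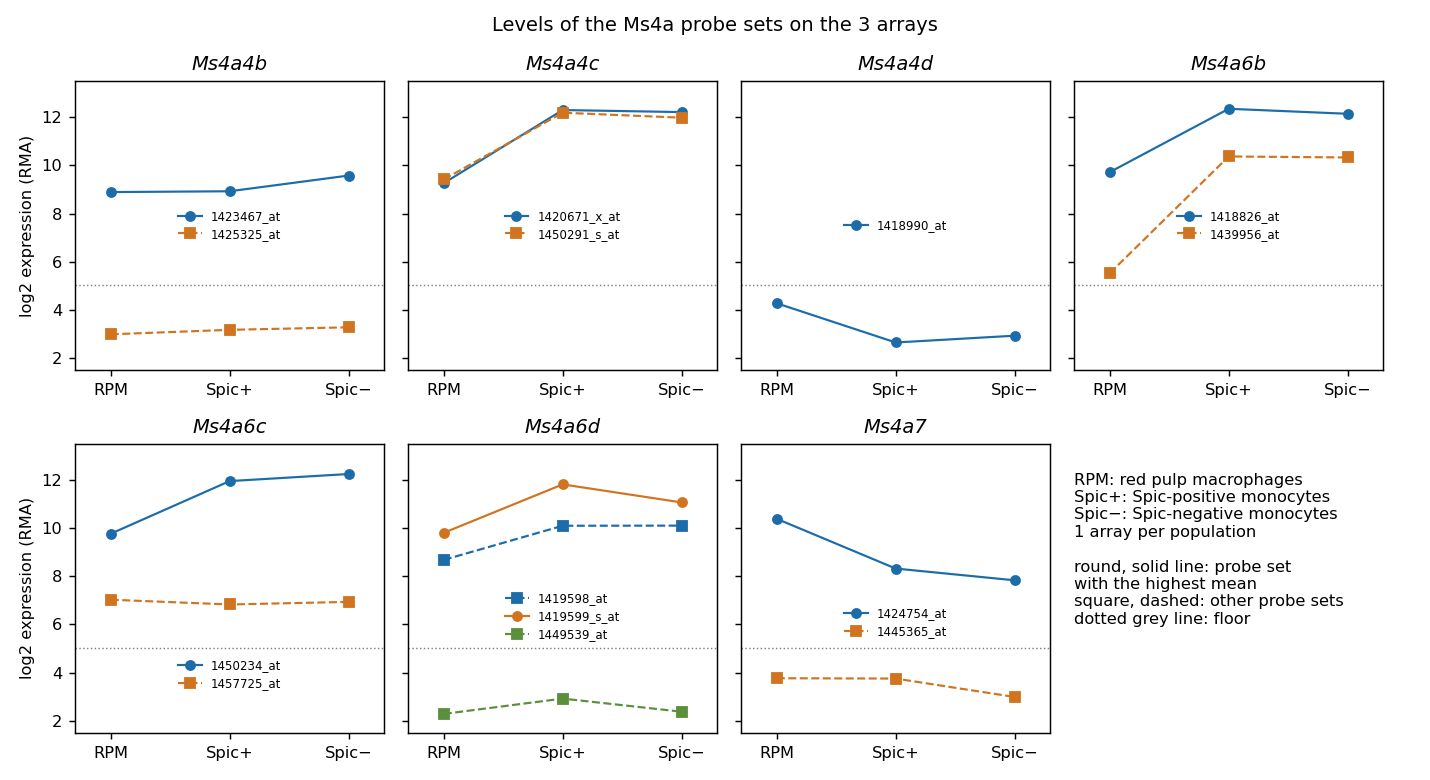
Log2 expression (vertical axis) of all 14 probe sets of the 7 members, 1 panel per gene, in red pulp macrophages (RPM), Spic-positive monocytes (Spic+) and Spic-negative monocytes (Spic−), 1 array each. Round points mark the probe set with the highest mean, squares the others, and the dotted line the floor at 5.02; 10 probe sets lie above the floor on all 3 arrays and 4 below it on all 3.

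Ms4a4c, which is induced by interferon in mouse immune cells, had the largest difference among the members on the brightest probe sets. It measured 9.26 in red pulp macrophages, 12.30 in Spic-positive monocytes and 12.21 in Spic-negative monocytes on probe set 1420671_x_at. The second probe set, 1450291_s_at, measured 9.42, 12.19 and 11.98 in the same order. Both probe sets placed the monocyte arrays together and the macrophage array below them. The macrophage level was 7.72-fold lower than that of Spic-negative monocytes on the first (log2 difference -2.95), the second gave -2.56, and 0.743% of all genes had a lower difference than the first. Against Spic-positive monocytes the differences were -3.03 and -2.77. Both probe sets are of types that can bind transcripts of several genes (_x_at and _s_at), so signal from a near copy such as Ms4a4b is possible, and the platform has no other probe set for Ms4a4c.

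Ms4a6b, a close copy of Ms4a6c described in mouse T cells as well as in myeloid cells, measured 9.72 in red pulp macrophages, 12.35 in Spic-positive monocytes and 12.14 in Spic-negative monocytes on 1418826_at. On 1439956_at it measured 5.53 in red pulp macrophages, 10.37 in Spic-positive monocytes and 10.33 in Spic-negative monocytes. Again the monocyte arrays lay together on each probe set and the macrophage array below. The probe sets agreed on the direction and not on the size: macrophages minus Spic-negative monocytes was -2.42 on the first and -4.80 on the second, where the macrophage level came close to the floor. Against Spic-positive monocytes the values were -2.63 and -4.84.

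Ms4a6c, a gene often used to mark classical monocytes in the mouse, measured 9.77 in red pulp macrophages, 11.95 in Spic-positive monocytes and 12.24 in Spic-negative monocytes on 1450234_at. Macrophages were lower by 5.57-fold (-2.48) than Spic-negative and by 4.54-fold (-2.18) than Spic-positive monocytes. The other probe set, 1457725_at, did not show this: it measured 7.03 in macrophages, 6.83 in Spic-positive monocytes and 6.94 in Spic-negative monocytes. The difference of Ms4a6c therefore rests on 1 probe set of 2 above the floor, and the mean of both gives -1.19 against Spic-negative and -0.99 against Spic-positive monocytes.

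Ms4a6d encodes a membrane protein that partners with VSIG4 in mouse macrophages. It measured 9.80 in red pulp macrophages, 11.81 in Spic-positive monocytes and 11.06 in Spic-negative monocytes on 1419599_s_at, and 8.68, 10.10 and 10.10 on 1419598_at. Of these, 1419599_s_at is of a type that can bind transcripts of several genes. A further probe set, 1449539_at, lay below the floor on all 3 arrays. Macrophages were lowest on both readable probe sets, with differences of -1.26 and -1.42 against Spic-negative monocytes and of -2.01 and -1.42 against Spic-positive monocytes. The mean over all 3 probe sets brought the first comparison to -0.92, under 2-fold.

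**Figure D2:**
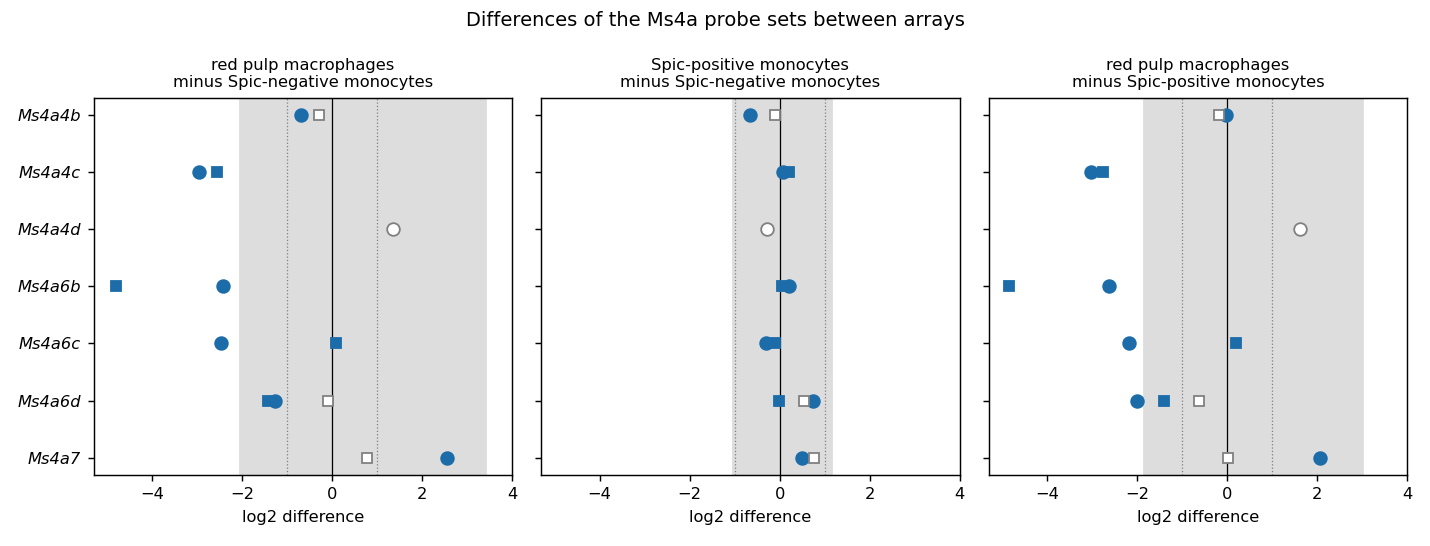
Log2 difference (horizontal axis) of each member probe set in the 3 comparisons named above the panels. Round points are the probe set with the highest mean, squares the others, open symbols lie below the floor on every array, dotted lines mark 2-fold and the grey band holds the central 95% of all 12375 genes; Ms4a4c and Ms4a6b lie left of the band on both probe sets in both macrophage comparisons.

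Ms4a7 ran the other way. It measured 10.38 in red pulp macrophages, 8.32 in Spic-positive monocytes and 7.83 in Spic-negative monocytes on 1424754_at, so that macrophages were higher by 5.86-fold (2.55) than Spic-negative and by 4.18-fold (2.06) than Spic-positive monocytes. With the mean or median of its 2 probe sets, the other of which was below the floor on all 3 arrays, the differences were 1.66 and 1.04. Spic-positive monocytes stood between the other arrays, 0.49 above Spic-negative monocytes. High differences of this size were more frequent over all genes than low ones of the size of Ms4a4c: 95.4% of all genes had a lower difference than Ms4a7 in macrophages against Spic-negative monocytes, so it lay within the central 95%. That other probe set, 1445365_at, gave 3.77, 3.76 and 2.99. Ms4a7 was the only member above the floor with a higher level in macrophages on its brightest probe set, and it is the member at the Ms4a1 end of the run of genes.

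Ms4a4b, first described in T cells of the mouse, where it associates with the costimulatory receptor GITR and modulates proliferation, measured 8.89 in red pulp macrophages, 8.93 in Spic-positive monocytes and 9.58 in Spic-negative monocytes on 1423467_at. The macrophage and Spic-positive arrays differed by -0.03, and both were below Spic-negative monocytes, with differences of -0.69 and -0.65. Its other probe set, 1425325_at, lay below the floor at 2.99, 3.18 and 3.28, so the probe sets disagree on whether the gene is detected. Markers of T cells and NK cells are given beside it, since these cells can carry the gene. Of 9 measured T cell markers, 8 were above the floor in macrophages, 3 in Spic-positive and 3 in Spic-negative monocytes, with summed linear levels of 696, 367 and 355. The CD3 genes Cd3d and Cd3g were below the floor on both monocyte arrays. Of the 8 T cell markers above the floor on any array, 4 were at least 2-fold higher in macrophages than in Spic-negative monocytes. At least 2-fold lower were 0. Cd3e measured 6.16, 6.57 and 6.63 and Cd6 5.99, 6.07 and 6.15 in macrophages, Spic-positive and Spic-negative monocytes. These small steps had the order of Ms4a4b, which most of the list did not share. Of 9 measured NK cell markers, 9 were above the floor in macrophages, 3 in Spic-positive and 2 in Spic-negative monocytes, with sums of 1776, 404 and 303. The share of lymphocyte RNA in the Ms4a4b signal was not tested.

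Ms4a4d was represented by 1 probe set, 1418990_at, at 4.28 in red pulp macrophages, 2.65 in Spic-positive monocytes and 2.93 in Spic-negative monocytes. All 3 values were below the floor, so the differences of 1.34 and 1.63 in favour of macrophages depend on the background and were not counted. Its neighbours on the chromosome, Ms4a6b and Ms4a6d, were both above the floor on all 3 arrays.

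Between the monocyte populations the differences were below 2-fold. None of the 6 members above the floor, 0 higher and 0 lower, was 2-fold different between Spic-positive and Spic-negative monocytes, against 3.49% of all genes that were 2-fold or more higher and 3.06% that were 2-fold or more lower. At such shares 0 of 6 is also near the background, and with 1 array each equal levels are not shown. The median of the 6 was 0.15, against -0.06 for all genes, and the central 95% of all genes ran from -1.05 to 1.17. On the brightest probe sets the differences were 0.75 for Ms4a6d, 0.49 for Ms4a7, 0.21 for Ms4a6b, 0.09 for Ms4a4c, -0.29 for Ms4a6c and -0.65 for Ms4a4b. All 6 lay within that central range. The value of Ms4a6d was not shared by its other readable probe set, which gave -0.01.

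In red pulp macrophages against Spic-positive monocytes, the same 4 of 6 members were at least 2-fold lower, against 11.6% of all genes, and Ms4a7 was the 1 of 6 at least 2-fold higher, against 22.0%. The median of the 6 was -2.10 and that of all genes 0.10. This comparison shares the macrophage array with the one above and adds no separate measurement of it. The classical monocyte markers, fixed as a list, moved in the same direction: of 8 above the floor, 7 were at least 2-fold lower in macrophages than in Spic-negative monocytes (median -3.74) and 5 than in Spic-positive monocytes (median -2.76). Between the monocyte arrays, 2 of these 8 were at least 2-fold lower in Spic-positive cells. Of 10 nonclassical monocyte markers, 5 were lower and 3 higher in macrophages than in Spic-negative monocytes.

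Other genes of the family were taken from a list. Of 15 listed genes, 10 were in the table and 6 were above the floor on at least 1 array. Ms4a1 (CD20) measured 7.72 in red pulp macrophages, 9.53 in Spic-positive monocytes and 7.14 in Spic-negative monocytes, and 5.98, 7.30 and 5.21 on its second probe set, so it was highest in Spic-positive monocytes. Between the monocyte arrays the B cell markers moved with it, with 6 of 8 past 2-fold upwards in Spic-positive monocytes. Their summed linear levels were 1738 in macrophages, 1966 in Spic-positive and 711 in Spic-negative monocytes. In macrophages against Spic-positive monocytes, where Ms4a1 differed by -1.81, 2 of the 8 were at least 2-fold lower. Cd79b was highest in macrophages, at 9.82. Ms4a3, found in granulocyte and monocyte progenitors, measured 6.14, 7.30 and 5.52 in macrophages, Spic-positive and Spic-negative monocytes. The 4 other progenitor genes in its list, Mpo, Elane, Prtn3 and Ctsg, measured 8.22, 5.33, 7.45 and 7.95 in macrophages, 9.21, 6.34, 9.43 and 7.31 in Spic-positive monocytes and 6.35, 5.52, 7.74 and 5.27 in Spic-negative monocytes, so Ctsg was highest in macrophages and the other 3 in Spic-positive monocytes. None of the 6 members showed a 2-fold rise of this kind in Spic-positive over Spic-negative monocytes, but only 3.49% of all genes did. At that share its absence among 6 genes is near the background and does not set the members apart.

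Ms4a8a, at 8.10 in red pulp macrophages, 8.89 in Spic-positive monocytes and 9.86 in Spic-negative monocytes, was lowest in macrophages, with differences of -1.76 and -0.79 against Spic-negative and Spic-positive monocytes. Ms4a15 measured 6.85, 7.87 and 7.33. Tmem176a and Tmem176b are related genes outside the cluster whose products also cross the membrane 4 times, in vesicles of myeloid cells. Tmem176b measured 10.52 in macrophages, 12.46 in Spic-positive monocytes and 11.69 in Spic-negative monocytes. Tmem176a measured 10.08, 11.59 and 10.34 on its brightest probe set, and 8.25, 10.92 and 9.97 and 8.81, 10.73 and 9.55 on its others. Its difference between Spic-positive and Spic-negative monocytes was 1.24, 0.95 and 1.18 on these probe sets, and that between macrophages and Spic-negative monocytes -0.27, -1.72 and -0.74. Both Tmem176 genes were highest in Spic-positive monocytes and lowest in macrophages, the order also seen for Ms4a6d on its brightest probe set. Ms4a2, the IgE receptor beta chain, was below the floor on all 3 arrays on its brightest probe set, as were Ms4a10, Ms4a13 and Ms4a18.

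**Figure D3:**
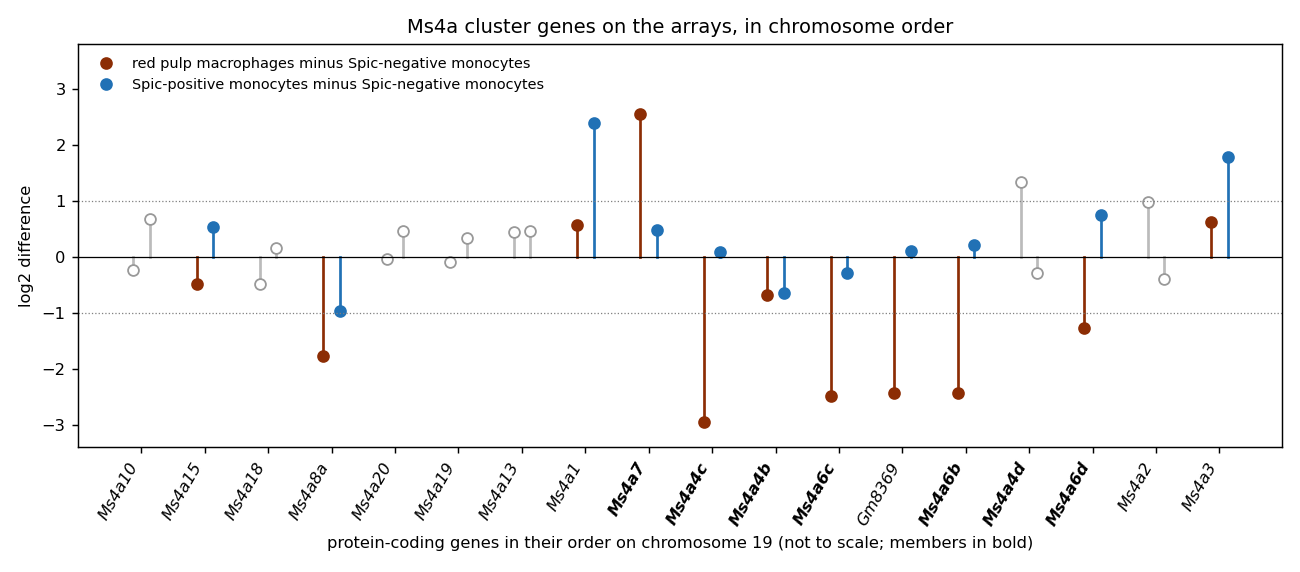
Log2 differences (vertical axis) of red pulp macrophages and of Spic-positive monocytes from Spic-negative monocytes for the 18 protein-coding genes of the Ms4a cluster that are in the table, in chromosome order and not to scale, members in bold. Filled points are genes above the floor on at least 1 array, open points lie below it and dotted lines mark 2-fold; Ms4a4c, Ms4a6c, Gm8369 and Ms4a6b lie between -2.95 and -2.42 in macrophages, with Ms4a4b at -0.69 among them. Gm8369 was below the floor in macrophages, at 3.29, so the size of its difference depends on the background.

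The genes whose 3 values ran most like those of a member were looked up among all 12375 genes above the floor, by the Euclidean distance between log2 values after each gene's mean over the 3 arrays was taken off. Where a gene is below the floor in macrophages, its distance and rank depend on the background, which holds for Mansc1, Gm8369, Clec5a and Nudt7 below, at 4.04, 3.29, 4.10 and 4.35 there. For Ms4a6b the nearest were Mansc1 (distance 0.047) and Gm8369 (0.087), the gene that lies between Ms4a6c and Ms4a6b on the chromosome. Gm8369 measured 3.29 in red pulp macrophages, 5.82 in Spic-positive monocytes and 5.72 in Spic-negative monocytes. For Ms4a6d the nearest were Cyp4f16 (0.065) and Tmem176b (0.069). Each member was taken on its brightest probe set. For Ms4a6d this was 1419599_s_at, with 0.75 for Spic-positive over Spic-negative monocytes, where 1419598_at gave -0.01. For Ms4a4c the nearest were the C-type lectin gene Clec5a (0.069) and the integrin gene Itga4 (0.076). Ms4a6c was nearest to the death receptor gene Fas (0.037) and to Nudt7 (0.041). Ms4a7 was nearest to the protease gene Prss30 (0.035) and to Blvra (0.039), a biliverdin reductase of heme breakdown, which measured 12.28, 10.17 and 9.72 in macrophages, Spic-positive and Spic-negative monocytes. Ms4a4b was nearest to Ercc8 (0.017) and Zfp281 (0.026). With only 3 values per gene, many genes lie close to any pattern, and a small distance is a description of these arrays.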

How the data were processed

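Total RNA of 3 sorted spleen populations was labelled after 2 cycles of amplification and hybridized to 1 array each, per the labels' protocols. The deposited log2 values per probe set were made by the authors with RMA, per the submitters' processing notes, with a version not given in the sources used here. Since the scale is unstated, log2 was read from the values, which ran from 1.82 to 14.50. RMA with quantile normalization gives the arrays a like distribution, which hides any change of RNA content per cell.

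From these values, 64 control probe sets were set aside. Symbols of the 34945 probe sets with 1 symbol were updated through gene identifiers, 932 probe sets had several symbols and named no gene, and 9160 were unnamed here. Where a gene had several probe sets, the one of highest mean level stood for it. The floor was log2 5.02, and 12375 genes had their brightest array above it. Differences were counted at 2-fold, with no test, since each population had 1 array, and the number of arrays limits the precision. Genes named are the members, a fixed list of family genes, marker lists and the 2 nearest genes of each member. The members and lists were chosen with earlier results of these data known. Promoter windows were aligned locally (match 1, mismatch -1, gap opening -2, gap extension -1). The gene levels and the 2-fold calls of macrophages against Spic-negative monocytes were tested on simulated data, and the other steps were not. Python 3.11.15, numpy 2.4.6, pandas 2.3.3, matplotlib 3.10.9, Biopython 1.88, R 4.3.3 and limma 3.58.1 were used. As alternatives, probe sets of a gene were averaged or their median taken, and there were 3 other scalings, 2 other floors and leaving out probe sets of the _x_at and _s_at types.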

Additional observations from a re-analysis of the deposited data

How the results depend on the processing

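Of the 48 counts of members past 2-fold under the 8 alternatives, 46 stayed within 1.5 times the values reported. Without a floor, Ms4a4d joined Ms4a7, so that 2 members were at least 2-fold higher in macrophages than in Spic-negative monocytes and 2 than in Spic-positive monocytes. Of the single differences, Ms4a6c came to -0.99 against Spic-positive monocytes with the mean or median of its probe sets, and Ms4a6d to -0.92 against Spic-negative monocytes with the mean, both under 2-fold. No difference past 2-fold changed sign under any of the 8 alternatives. Without the _x_at and _s_at types Ms4a4c has no value. Over all genes, 53.3% of those past 2-fold between the monocyte arrays were higher in Spic-positive cells, and 42.4% after centring each array on its median. Centring moved the median of all genes for macrophages against Spic-positive monocytes to 0.23, and a second quantile normalization to -0.03, from 0.10. Between the monocyte arrays, the 379 genes lower in Spic-positive cells became 237 with the mean of probe sets, the 432 higher became 249 with the floor at the 75th percentile, and the 1435 lower in macrophages than in Spic-positive monocytes became 943 with that floor. The number of genes also fell, from 12375 to 11281 with the mean and to 7971 with that floor. These counts are not corrected for it. No paired analysis was possible because each population had 1 array and no result came from a test. Depth in the sense of counts does not apply, and levels below the floor carry no order.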

Other observations

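AW112010, annotated as a long noncoding RNA, lies between Ms4a18 and Ms4a8a in the RefSeq gene order and was singled out after its values were seen. It measured 12.73 in red pulp macrophages, 11.09 in Spic-positive monocytes and 9.56 in Spic-negative monocytes, with differences of 3.17 for macrophages and 1.54 for Spic-positive monocytes against Spic-negative monocytes. It was the 1 gene of any kind between Ms4a10 and Ms4a3, beside Ms4a7, at least 2-fold higher in macrophages than in Spic-negative monocytes among those above the floor. Vsig4, the complement receptor whose protein partners with that of Ms4a6d, measured 9.16 in macrophages, 4.14 in Spic-positive monocytes and 4.36 in Spic-negative monocytes. Its monocyte values were below the floor of 5.02, so the size of its difference depends on the background.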
